A study of Homo sapiens with 13 samples.

Results

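The transcripts followed here encode 10 regulators of the cell cycle: the transcription factors E2F1, E2F2, E2F3, E2F7 and E2F8, the pocket proteins RB1, RBL1 and RBL2, and the later-acting activators FOXM1 and MYBL2. They were taken by name from a table of 67882 gene identifiers, and 9 of the 10 passed the filter on low counts that left 15734 genes for testing. The exception, E2F2, held 0 counts in all 13 libraries. The cells were PC3, an established human prostate cancer line, and every group, controls included, carried a short hairpin RNA against TIMP1. Vehicle (3 libraries) was set against docetaxel at 1 nM (4 libraries), adapalene at 5 µM (3 libraries) and the 2 drugs together, called Combo (3 libraries), all after 48 h. Docetaxel, a taxane, blocks mitosis by stabilising microtubules, and adapalene is a retinoid receptor agonist. The doses within Combo are not restated in the labels. The submitters call the replicates technical, so each p-value below measures the spread between technical replicates of 1 hairpin line. Cells lacking that hairpin are not part of the comparison.

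In G1 the pocket proteins bind E2F factors and keep the genes of S phase silent. Cyclin-dependent kinases phosphorylate the pocket proteins, the activator E2Fs (E2F1, E2F2 and E2F3) are released, and genes of DNA replication are transcribed, several of the E2F genes among them. E2F7 and E2F8, which lack a pocket protein binding site, repress the same genes later in S phase. RBL1 and RBL2 also join E2F4 or E2F5 and the MuvB core to form the repressive DREAM complex. When cells move on, MuvB exchanges these partners for MYBL2 (B-MYB) and then recruits FOXM1, and the genes of G2 and mitosis are switched on.

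Library totals ran from 11948720 to 16235041 counts, and mitochondrially encoded genes took 0.722 to 2.82% of them, over 2% in 4 libraries, 1 per group (Vehicle 3, Docetaxel 4, Adapalene 3 and Combo 3). Levels are CPM, counts scaled to a common library size, with TMM as a correction for the makeup of each library. The member genes held 346 to 4623 counts per library, apart from E2F2, which sets the counting error of each value. TIMP1 itself was detected in every library, at 55.0 to 111 CPM. The 5 epithelial markers summed to 2348 to 3881 CPM, while 7 fibroblast markers summed to at most 6.34 CPM and 7 leukocyte markers to 1.14 to 3.88 CPM, and 5 genes of each of these lists had at most 15 counts in any library. The sums moved with the groups: epithelial markers were at 2925 to 3394 CPM in Vehicle and 2423 to 2533 CPM in adapalene, fibroblast markers at most at 3.41 CPM in Vehicle and at 4.43 to 6.34 CPM in docetaxel, and leukocyte markers at 1.14 to 1.81 CPM in Vehicle and 3.05 to 3.88 CPM in Combo. Their part in the results was not tested. The leukocyte marker NKG7 was at 0 in every library. Among the 5 prostate luminal markers KLK2 was at 0 and KLK3 had at most 1 count in any library. These are bulk libraries, in which fewer cells at a stage of the cycle and less transcript per cell cannot be told apart.

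Promoter sequence is shown for 4 members, 3 with a match to the E2F consensus and E2F7 without one. The stretches are the 120 bases before the RefSeq start site (GRCh38.p14, gene strand, 5′ to 3′), for E2F1 (chr20:33686386-33686505, minus strand), RBL1 (chr20:37095998-37096117, minus strand), E2F3 (chr6:20401759-20401878, plus strand, the upstream of 2 starts) and E2F7 (chr12:77065570-77065689, minus strand). Capitals mark letters that match the E2F consensus as TTTCCCGC, TTTCGCGC, TTTGCCGC or TTTGGCGC, or their reverse complements.
E2F1: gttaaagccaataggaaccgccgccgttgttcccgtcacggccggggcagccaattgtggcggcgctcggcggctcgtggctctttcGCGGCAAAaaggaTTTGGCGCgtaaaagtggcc
RBL1: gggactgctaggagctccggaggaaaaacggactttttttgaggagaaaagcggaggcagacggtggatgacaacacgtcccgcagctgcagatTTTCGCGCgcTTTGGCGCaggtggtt
E2F3: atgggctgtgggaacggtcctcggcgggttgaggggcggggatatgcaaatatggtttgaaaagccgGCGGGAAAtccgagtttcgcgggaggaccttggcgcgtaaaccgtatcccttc
E2F7: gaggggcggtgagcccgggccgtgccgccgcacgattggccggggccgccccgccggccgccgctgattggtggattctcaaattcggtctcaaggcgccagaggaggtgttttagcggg

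E2F1 and RBL1 each hold 2 such matches, and E2F3 holds 1 beside the letters TTTGAA of a CHR element, the kind of site through which MuvB complexes bind. E2F7 holds none in the 250 bases searched. The NF-Y letters CCAAT, or ATTGG on the other strand, occur at 4 places in E2F7, 4 in E2F3, 3 in E2F1 and 0 in RBL1. Over all 35116 RefSeq windows of the same 250 bases, 2.8% hold an E2F match, 14.3% hold TTTGAA or TTCGAA and 32.0% hold CCAAT, both strands counted. A match describes the letters only. E2F2 has 1 E2F match, and MYBL2 and RBL2 have no E2F match in their windows. The windows of RB1, of the second start of E2F3 and of both starts of RBL2 lie inside the annotated gene. The table has no entry for E2F8 or FOXM1.

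Docetaxel alone lowered E2F1, E2F8, RBL1 and RBL2 and raised E2F7. Adapalene alone lowered E2F3, the 1 member called with it. With both drugs E2F3, RBL1, RBL2 and FOXM1 were lower than in Vehicle, and E2F1 was not called. Between Combo and adapalene 0 of 9 members were called, where 0.0381% of all genes were. RB1 and MYBL2 were called in no comparison. A gene was called when its edgeR quasi-likelihood p-value, adjusted over all 15734 genes by the Benjamini-Hochberg method, was under 0.05, and the same holds for every adjusted p given here.

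Read against all genes, the members' counts were as follows. Docetaxel changed 5 of 9 members, 4 lower and 1 higher, where 25.9% of all genes were called, 12.8% lower and 13.2% higher. Adapalene changed 1 of 9, a fall, where 18.4% of all genes were called, 9.16% lower and 9.25% higher. Combo lowered 4 of 9 and raised 0, where 25.8% of all genes were called, 12.3% lower and 13.5% higher. The median member stood at −0.16, −0.14 and −0.27 on the log2 scale, against −0.02, 0.02 and 0.02 over all genes. These 3 comparisons share the Vehicle libraries.

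Groups did not overlap in CPM for 5, 3 and 4 members in those comparisons, where 36.9, 35.1 and 39.4% of all genes did not. Between Combo and docetaxel, Combo and adapalene, and the 2 single drugs, the counts were 3, 2 and 3, where 32.1, 8.65 and 35.3% of all genes did not overlap. With total counts as the only scaling the split of all calls shifted towards rises, from 2073 up and 2009 down to 2373 and 1466 with docetaxel, from 1455 and 1441 to 1830 and 1023 with adapalene, and from 2117 and 1941 to 2671 and 1391 with Combo. The docetaxel count of 5 members became 3 without Vehicle replicate 2, and the Combo count of 4 became 2 without Combo replicate 3. The adapalene count of 1 became 0 without Vehicle replicate 1 or 2, or without Adapalene replicate 1 or 2. It became 2 without Docetaxel replicate 4 or Combo replicate 1, and 3 without Vehicle replicate 3 or Combo replicate 3.

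**Figure D1:**
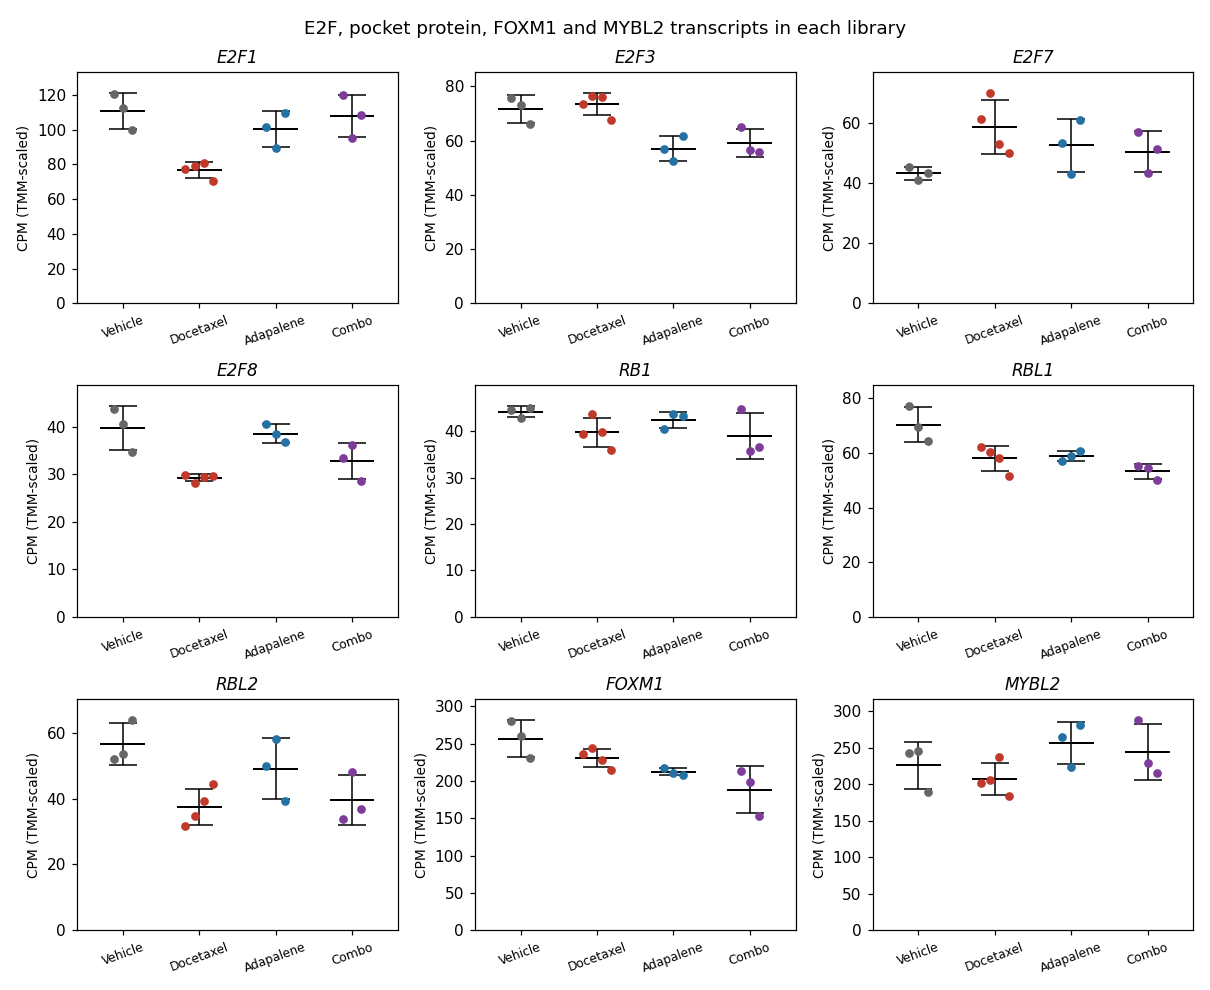
Level of 9 member transcripts in each of the 13 libraries (CPM, TMM-scaled, axes from 0), by treatment group; points are libraries in order of replicate number, the horizontal bar is the group mean and the whiskers are 1 SD. The 4 docetaxel libraries of E2F1 lie at 70.4 to 80.8 CPM, below every library of the other groups, and the adapalene and Combo libraries of E2F3 lie below every Vehicle and docetaxel library.

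E2F1 (chromosome 20, 33675683 to 33686404), the activator best known for driving entry into S phase, had Vehicle levels of 120.4, 112 and 100.0 CPM, in order of replicate number as in all such lists here. Docetaxel levels were 77.3, 79.2, 80.8 and 70.4 CPM. With adapalene the values were 102, 89.5 and 109.7 CPM, and with Combo 119.8, 95.2 and 108 CPM. Docetaxel was the low group and overlapped none of the other 3, which overlapped each other. Against Vehicle the fall was −0.53 on the log2 scale (SE 0.09, edgeR adjusted p = 0.000927), a decrease of 30.6%. Adding adapalene to docetaxel went with a rise of 0.49 (SE 0.09, edgeR adjusted p = 0.00201), and Combo against Vehicle was not called (−0.04, SE 0.10, edgeR adjusted p = 0.802). Both the fall and the rise kept their call under all 20 alternative analyses.

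The interaction asks whether adapalene acts differently when docetaxel is present, by taking the log2 change from docetaxel to Combo minus that from Vehicle to adapalene. For E2F1 it was 0.63 (SE 0.14, edgeR adjusted p = 0.0328), and E2F1 was the 1 member of 9 called, where 1.44% of all genes were, 0.21% higher and 1.23% lower. Adapalene alone gave −0.14 (SE 0.10, edgeR adjusted p = 0.331) and adapalene on top of docetaxel 0.49. The interaction had the same sign under all 19 alternatives, with values of 0.54 to 0.73, but the call was lost under 7. These left out Vehicle replicate 1 or 2 (edgeR adjusted p = 0.101 each), Docetaxel replicate 1 (0.0743) or 2 (0.0657), Adapalene replicate 1 (0.0808) or Combo replicate 1 (0.0791), or used the replicate number as a block (0.052). The next largest value was that of E2F7, at −0.49 (SE 0.19, edgeR adjusted p = 0.202), which did not pass.

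E2F3 (chromosome 6, 20401906 to 20493715), a second activator, showed the other pattern. It read 75.7, 73.1 and 66.1 CPM in Vehicle and 73.6, 76.6, 76.1 and 67.7 CPM in docetaxel. With adapalene it read 56.8, 52.4 and 61.8 CPM, and with Combo 65.0, 56.4 and 55.7 CPM. Both groups that received adapalene lay below every library of the groups that did not. The change was −0.33 with adapalene (SE 0.09, edgeR adjusted p = 0.0181), −0.28 with Combo (SE 0.09, edgeR adjusted p = 0.0296) and −0.31 from docetaxel to Combo (SE 0.08, edgeR adjusted p = 0.0127). Docetaxel alone gave 0.04 (SE 0.08, edgeR adjusted p = 0.776).

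These calls of E2F3 lie near the threshold. Leaving out Vehicle replicate 1 (edgeR adjusted p = 0.0794), Vehicle replicate 2 (0.0624), Adapalene replicate 1 (0.0584) or Adapalene replicate 2 (0.0647) ended the adapalene call. The Combo call was lost without Vehicle replicate 1 or 2 (0.111 and 0.0842) or Combo replicate 2 or 3 (0.0803 and 0.111), with total counts as the only scaling (0.0534) and with the 2 groups fitted alone (0.0618), and the call from docetaxel to Combo without Combo replicate 2 or 3 (0.0591 and 0.0512).

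Within a library the balance of the 2 activators separated the groups. The ratio of E2F1 to E2F3 CPM, chosen after the values were seen and given without a test, ran from 1.51 to 1.59 in Vehicle, 1.03 to 1.06 in docetaxel, 1.71 to 1.79 in adapalene and 1.69 to 1.95 in Combo. Docetaxel libraries were the lowest, Vehicle lay between, and the adapalene and Combo ranges overlapped each other but not Vehicle.

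E2F2 (chromosome 1, 23506430 to 23531220), the third activator, had no count in any library. The neighbours ZNF436, TCEA3, ASAP3 and ID3 were at 0 throughout as well, a run of 5 protein-coding genes from 23359448 to 23559794. HNRNPR, a widely expressed gene for an RNA-binding protein that lies next to the run, had 5 counts over all libraries, and RPL11, a ribosomal protein gene on its other side, had 6094 to 8506 per library. Of 19878 protein-coding genes in the table, 14.2% had no count at all. A 0 in such a stretch does not show that E2F2 was not transcribed, so its level is unknown here.

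E2F7 (chromosome 12, 77021247 to 77065580), a repressor of the same targets, read 45.4, 41.2 and 43.4 CPM in Vehicle and 61.5, 70.2, 53.0 and 50.1 CPM in docetaxel. All docetaxel libraries were above all Vehicle libraries. Adapalene (53.6, 43.2 and 61.1 CPM) and Combo (57.1, 43.5 and 51.3 CPM) spread across both ranges. The rise with docetaxel was 0.44 (SE 0.13, edgeR adjusted p = 0.0225), and it was the 1 rise among the 9 members in that comparison. It was not called without Vehicle replicate 2 or 3 (edgeR adjusted p = 0.0908 and 0.0585) or without Docetaxel replicate 1 or 2 (0.0579 and 0.0784). Adapalene and Combo gave 0.28 and 0.23 (edgeR adjusted p = 0.173 and 0.245).

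E2F8 (chromosome 11, 19224063 to 19241620), the close relative of E2F7 and its partner in repression, moved the opposite way with docetaxel. Vehicle libraries read 43.8, 40.5 and 34.6 CPM and docetaxel libraries 29.8, 28.2, 29.5 and 29.5 CPM, a fall of −0.44 (SE 0.09, edgeR adjusted p = 0.00359) that kept its call under all 20 alternatives. The 4 docetaxel values were close together and under every Vehicle value. Adapalene libraries (40.5, 38.4 and 36.7 CPM) lay within the Vehicle range, and Combo libraries (33.4, 36.2 and 28.6 CPM) reached from that range down to the docetaxel values. Combo against Vehicle gave −0.27 (SE 0.10, edgeR adjusted p = 0.0549). With the replicate number as a block this became a call (edgeR adjusted p = 0.0428), as it did without Vehicle replicate 3 (0.0189), Adapalene replicate 3 (0.0489) or Combo replicate 2 (0.0271) and without the 4 libraries of high mitochondrial share (0.0455).

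**Figure D2:**
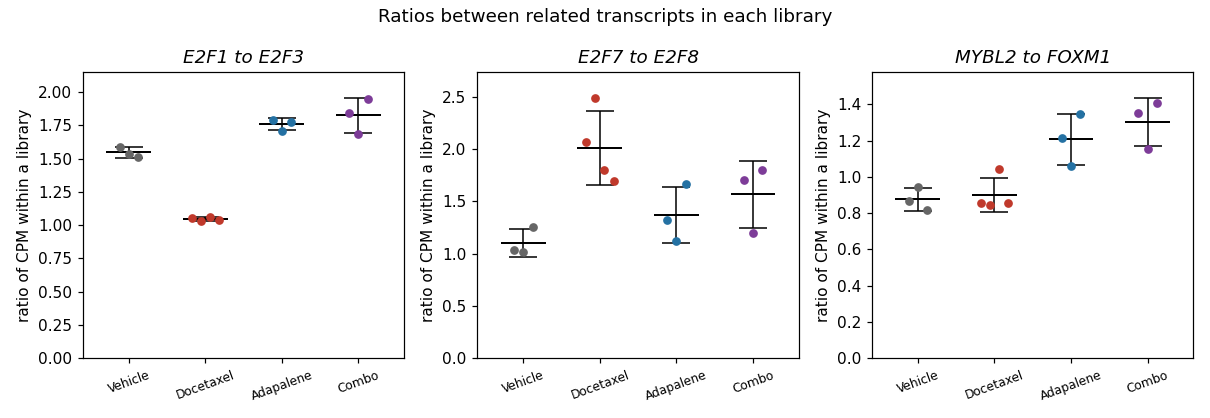
Ratios of CPM within each library for E2F1 to E2F3, E2F7 to E2F8 and MYBL2 to FOXM1, by group; points are libraries, bars are group means, whiskers are 1 SD, and axes start at 0. Docetaxel libraries have the lowest E2F1 to E2F3 ratios (1.03 to 1.06) and the highest mean E2F7 to E2F8 ratio (2.01), and MYBL2 to FOXM1 is higher in both groups given adapalene than in any Vehicle or docetaxel library.

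As a description, the E2F7 to E2F8 ratio was 1.02 to 1.25 in Vehicle and 1.70 to 2.49 in docetaxel, with no overlap. It was 1.13 to 1.66 in adapalene and 1.20 to 1.80 in Combo, where both groups overlapped Vehicle. This pair too was picked once the values were known.

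RB1 (chromosome 13, 48303726 to 48599436), the retinoblastoma tumour suppressor gene, was not called in any comparison. It read 44.7, 42.9 and 45.0 CPM in Vehicle, 39.5, 43.7, 39.9 and 36.0 CPM in docetaxel, 40.6, 43.7 and 43.2 CPM in adapalene and 44.8, 35.8 and 36.6 CPM in Combo, and every group overlapped Vehicle. Its changes against Vehicle were −0.15, −0.06 and −0.18 for docetaxel, adapalene and Combo (SE 0.09 each, edgeR adjusted p = 0.213, 0.708 and 0.178). The Combo value passed without Combo replicate 1 (edgeR adjusted p = 0.0281), the 1 alternative that called it.

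RBL1 (chromosome 20, 36996349 to 37095995), which encodes p107, was lower in all treated groups. Vehicle read 77.0, 69.6 and 64.2 CPM, docetaxel 62.1, 60.3, 58.2 and 51.4 CPM, adapalene 57.0, 58.8 and 60.8 CPM, and Combo 55.4, 54.3 and 50.1 CPM. None of the 10 treated libraries reached the lowest Vehicle library. With Combo it fell by 0.40 (SE 0.09, edgeR adjusted p = 0.00407), a call that all 20 alternatives kept. With docetaxel the fall was −0.28 (SE 0.08, edgeR adjusted p = 0.0199), lost without Vehicle replicate 1 (0.106) or 2 (0.0557), without Docetaxel replicate 4 (0.0516) and with the replicate block (0.0539). The block sets Docetaxel replicate 4 aside as well. Adapalene gave −0.26 (SE 0.09, edgeR adjusted p = 0.0514), which 7 of 20 alternatives called. Those were the fits without Vehicle replicate 3 (edgeR adjusted p = 0.0303), Docetaxel replicate 4 (0.0332), Combo replicate 1 (0.05) or Combo replicate 3 (0.048), without the libraries of high mitochondrial share (0.0107), with the block (0.0403) and by DESeq2 (0.0399).

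RBL2 (chromosome 16, 53433977 to 53491649), which encodes p130, the pocket protein known for its abundance in resting cells, had the largest log2 fall of the members with docetaxel. It read 52.2, 53.5 and 63.9 CPM in Vehicle and 31.7, 34.7, 39.2 and 44.4 CPM in docetaxel, a fall of −0.59 (SE 0.15, edgeR adjusted p = 0.00863) kept under all 20 alternatives. Combo (33.7, 48.0 and 36.7 CPM) also lay below Vehicle (−0.52, SE 0.16, edgeR adjusted p = 0.0239), and adapalene (49.8, 58.1 and 39.4 CPM) overlapped it (−0.20, SE 0.16, edgeR adjusted p = 0.388). The Combo call was lost without Vehicle replicate 3 (0.0903) or Combo replicate 1 or 3 (0.0914 and 0.0878), without the 4 libraries of high mitochondrial share (0.0855) and with total counts as the only scaling (0.0516).

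AKTIP lies on the opposite strand and shares 610 exon bases with RBL2, with 36.9% as many counts. ITFG2 likewise shares 781 exon bases with FOXM1, with 4.17% as many counts, and AL136172.1 shares 211 with RBL1, with 1.11%. The libraries keep strand, but the setting used in counting is not known here, so reads of these partners could be in the values of RBL2, FOXM1 and RBL1.

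FOXM1 (chromosome 12, 2857681 to 2877155), the forkhead factor that switches on mitotic genes, was lowest with both drugs. It read 280, 261 and 230 CPM in Vehicle, 236, 244, 228 and 215 CPM in docetaxel, 218, 211 and 209 CPM in adapalene and 213, 199 and 153 CPM in Combo. Adapalene and Combo libraries lay below all Vehicle libraries, with Combo replicate 3 the lowest of the 13. The fall with Combo was −0.45 (SE 0.10, edgeR adjusted p = 0.00632), and all 20 alternatives kept it. Adapalene and docetaxel alone gave −0.27 and −0.16 (SE 0.10 each, edgeR adjusted p = 0.0805 and 0.255). The adapalene value was called under 5 alternatives: without Vehicle replicate 3 (edgeR adjusted p = 0.0441) or Combo replicate 3 (0.024), without the libraries of high mitochondrial share (0.00606), with the block (0.0465) and with no filter (0.0179). The docetaxel value was called under 1, without those 4 libraries (edgeR adjusted p = 0.0389). The library of high mitochondrial share was the lowest FOXM1 library in each of the 4 groups, and without these libraries the Combo fall was −0.39 (edgeR adjusted p = 0.00301).

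From docetaxel to Combo FOXM1 fell by 0.29 (SE 0.10, edgeR adjusted p = 0.043), and by 0.16 without Combo replicate 3. Of 20 alternatives 8 lost that call, with edgeR adjusted p of 0.187 without Combo replicate 3, 0.107 and 0.095 without Docetaxel replicates 2 and 1, 0.0662 without Docetaxel replicate 3, 0.0644 without Combo replicate 2, 0.0596 without Adapalene replicate 1, 0.0576 without Vehicle replicate 2 and 0.0582 with the 2 groups fitted alone.

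MYBL2 (chromosome 20, 43667019 to 43716496), the MuvB partner that acts before FOXM1, was called in no comparison. It read 243, 246 and 189 CPM in Vehicle, 202, 205, 238 and 183 CPM in docetaxel, 265, 224 and 280.4 CPM in adapalene and 288, 229 and 215 CPM in Combo, and all 4 groups overlapped. Its values against Vehicle were −0.12, 0.18 and 0.11 for docetaxel, adapalene and Combo (SE 0.12, 0.13 and 0.13, edgeR adjusted p = 0.481, 0.342 and 0.548). Its ratio to FOXM1 was 0.819 to 0.943 in Vehicle and 0.842 to 1.04 in docetaxel. In adapalene it was 1.06 to 1.34 and in Combo 1.15 to 1.40, so that both groups given adapalene lay above the other 2, a description of a pair chosen after its values were seen.

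**Figure D3:**
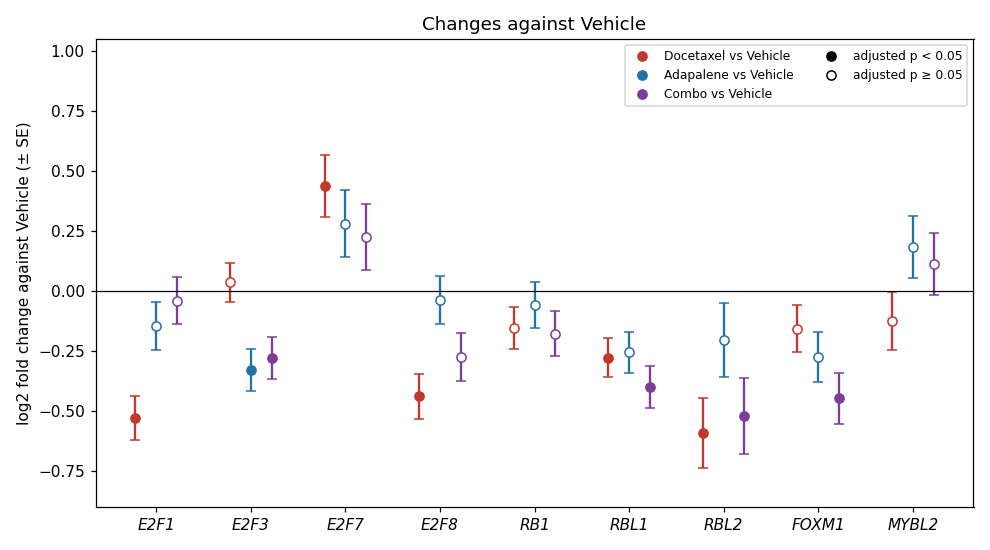
Log2 fold change of each member against Vehicle (points, with 1 SE) for docetaxel, adapalene and Combo; filled points have an edgeR adjusted p under 0.05. E2F1 and E2F8 are called with docetaxel and E2F3 with adapalene and Combo, and RB1 and MYBL2 have open points throughout.

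Set against each other directly, the 2 single drugs differed in 3 of 9 members, where 29.7% of all genes were called, 14.1% higher and 15.6% lower with docetaxel. E2F1 and E2F8 were lower with docetaxel than with adapalene (−0.38 and −0.40, SE 0.09 each, edgeR adjusted p = 0.00668 and 0.00566), and E2F3 was higher (0.37, SE 0.08, edgeR adjusted p = 0.00435). All 3 kept their call under all 20 alternatives. MYBL2 and RBL2 stood at −0.31 and −0.39 (SE 0.12 and 0.15, edgeR adjusted p = 0.0656 and 0.0587) and were called under 6 alternatives each.

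Adding adapalene to docetaxel raised E2F1 and lowered E2F3 and FOXM1, 3 of 9 members where 24% of all genes were called, 12.8% higher and 11.2% lower. That count fell to 1 without Combo replicate 2 or 3. Adding docetaxel to adapalene changed 0 of 9 members by the edgeR test (1, E2F8, at an unadjusted p under 0.05, and 0 by DESeq2), where 0.0381% of all genes, 6 of them, were called, all higher. The largest member value there was −0.32 for RBL2 (SE 0.16, edgeR adjusted p = 0.999).

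Levels of different genes can be set side by side only per length, here as CPM per kilobase of annotated exon in Vehicle. MYBL2 was highest at 81.3 ± 11.6 (SD, n = 3) and overlapped no other member. FOXM1 (52.4 ± 5.10) and E2F1 (44.3 ± 4.10) overlapped each other, as did E2F3 (13.9 ± 0.970) and RBL1 (11.8 ± 1.08). E2F8 (9.57 ± 1.12), RBL2 (7.72 ± 0.877), E2F7 (6.87 ± 0.336) and RB1 (6.85 ± 0.180) followed, and each overlapped the next. Exon lengths cover all annotated isoforms, so a gene with unused exons reads low on this scale.

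Partners, kinases and targets of the members were read from lists. Of 12 genes for E2F and MuvB partners, docetaxel lowered 3: MYB, the relative of MYBL2 from blood cells (−0.78), RBBP4, a MuvB subunit (−0.39), and TFDP1, the dimer partner of E2Fs (−0.32). Without Vehicle replicate 2 or Docetaxel replicate 1 that count was 1. Adapalene lowered E2F5, the pocket-bound repressor (−0.74, SE 0.10, edgeR adjusted p = 0.000297), TFDP1 (−0.44) and the MuvB gene LIN9 (−0.25), and raised MYBL1 (0.48), a count of 3 falls that was 1 without Vehicle replicate 1. Combo lowered 4 of 12, with E2F5 at −0.66 and TFDP1 at −0.57, and raised MYBL1 (0.38), a rise lost without Combo replicate 1 or 3 or any of the 3 Vehicle replicates. E2F5 read 25.1, 24.0 and 28.3 CPM in Vehicle and 25.5, 24.6, 29.6 and 26.1 CPM in docetaxel, against 14.8, 16.5 and 14.9 CPM in adapalene and 15.7 to 17.3 CPM in Combo. As with E2F3, the 2 groups given adapalene lay below the 2 that were not. From docetaxel to Combo E2F5, LIN9 and E2F4 were called lower, 3 of 12, and 0 rose. There 11.2% of all genes fell and 12.8% rose. The list median was −0.001 with docetaxel, −0.14 with adapalene and −0.15 with Combo, against −0.02, 0.02 and 0.02 over all genes. In those comparisons 12.8, 9.16 and 12.3% of all genes fell, and 13.2, 9.25 and 13.5% rose.

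Of 14 tested cyclins, kinases and inhibitors that act on the pocket proteins, docetaxel raised 3 and lowered 4, adapalene raised 3 and lowered 2, and Combo raised 3 and lowered 3. Of all genes 13.2% rose and 12.8% fell with docetaxel, 9.25% and 9.16% with adapalene, and 13.5% and 12.3% with Combo. The list medians were −0.04, 0.17 and 0.21, against −0.02, 0.02 and 0.02 over all genes. The kinase inhibitor gene CDKN1A rose in all 3 comparisons, by 1.43 with docetaxel and 1.77 with Combo. SKP2, whose protein marks the inhibitor p27 for destruction, fell in all 3 (−0.73, −0.49 and −0.62), as did the inhibitor gene CDKN2C (−0.68, −0.40 and −0.61). CCNE2, the gene of an S phase cyclin, rose with adapalene (0.51, SE 0.15, edgeR adjusted p = 0.0294) and from docetaxel to Combo (0.73, SE 0.14, edgeR adjusted p = 0.00234). From docetaxel to Combo the other rises were CDKN2A (0.44), which encodes an inhibitor of CDK4 and CDK6, and CDK2 (0.42), the partner kinase of that cyclin. There 12.8% of all genes rose and 11.2% fell. In that comparison CDK6 fell by 0.45, having been among the 3 genes that docetaxel raised. Its means were 78.8 CPM in Vehicle, 113 in docetaxel, 79.3 in adapalene and 82.8 in Combo. In the interaction CDKN1A (−1.16) and SKP2 (0.60) were called, named after their values were seen, where 1.23% of all genes were lower and 0.21% higher. The docetaxel count of 4 falls was 2 without Vehicle replicate 1 or 2 or Docetaxel replicate 2 or 4. The adapalene count of 3 rises was 1 without any 1 of the Vehicle replicates or without Adapalene replicate 1, its 2 falls were 1 without Vehicle replicate 1, and the fall of CDK6 was lost without Combo replicate 2.

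**Figure D4:**
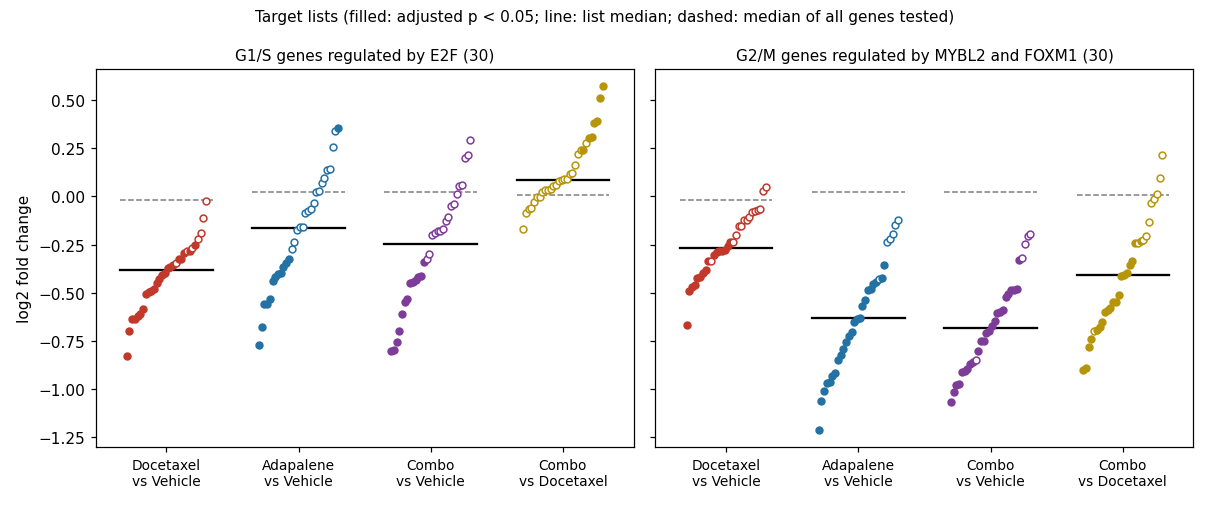
Log2 fold changes of 30 G1/S genes regulated by E2F and 30 G2/M genes regulated by MYBL2 and FOXM1 in 4 comparisons; each point is a gene in rank order, filled where the edgeR adjusted p is under 0.05, the black line is the list median and the dashed line the median of all tested genes. G1/S genes are lowest with docetaxel (median −0.38) and G2/M genes lowest with Combo (−0.68) and adapalene (−0.63).

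Among 30 G1/S genes known to be regulated by E2F, 23 fell with docetaxel and 0 rose, with a list median of −0.38. Among all genes 12.8% fell and 13.2% rose. CDCA7 (−0.83), the helicase subunit gene MCM6 (−0.70) and GINS2, part of the same helicase (−0.64), fell most. With adapalene 12 fell and CDC6, the gene of a helicase loader, rose (0.35, SE 0.11, edgeR adjusted p = 0.0349), with a median of −0.17. With Combo 13 fell and 0 rose (median −0.25), led by GINS2 and CDCA7 (−0.80 each). Among all genes 9.16% fell and 9.25% rose with adapalene, and 12.3% fell and 13.5% rose with Combo. From docetaxel to Combo 7 rose and 0 fell, led by the loader genes CDT1 (0.57) and CDC6 (0.51) and by RRM2 (0.39), which makes DNA precursors. The others of the 7 were TK1, CDC45, RRM1 and CHAF1A. There 12.8% of all genes rose and 11.2% fell, and the list median was 0.09, against 0.01 over all genes. In the interaction 3 rose where 0.21% of all genes did, MCM6 and CDCA7 (0.71 each) and PCNA (0.53), named after their values were seen. That count was 1 without Vehicle replicate 1 or Adapalene replicate 1, 0 without Vehicle replicate 2 and 8 without Combo replicate 3. Without Vehicle replicate 1 or 2 the docetaxel count was 15 or 14 and the adapalene count 7. The 1 rise with adapalene became 0 when Adapalene replicate 1 or 3 or Vehicle replicate 2 or 3 was left out and 2 without Adapalene replicate 2, and the 7 rises were 3 or 4 without Docetaxel replicate 1, 2 or 4 or Combo replicate 1 or 2.

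The 30 G2/M genes regulated by MYBL2 and FOXM1 ran differently. With docetaxel 16 fell and 0 rose (median −0.27), with TOP2A (−0.67) the lowest. With adapalene 24 fell (median −0.63), led by the mitotic kinase genes PLK1 (−1.21) and AURKA (−1.01) and the kinesin gene KIF20A (−1.06). Combo lowered 25 (median −0.68), with the kinetochore gene CENPF at −1.07, and from docetaxel to Combo 20 fell, led by CENPE (−0.90), another kinetochore gene. Between the single drugs 17 of 30 were higher with docetaxel and 2, CDC25B and CDK1, were lower, a count that was 1 without Docetaxel replicate 1 or Adapalene replicate 1 or 2 and 0 without Docetaxel replicate 2. Over those comparisons the medians of all genes were between −0.02 and 0.02. Falls made up 12.8, 9.16 and 12.3% of all genes with docetaxel, adapalene and Combo, and 11.2% from docetaxel to Combo. Between the single drugs 14.1% of all genes were higher with docetaxel and 15.6% lower. With adapalene FOXM1 itself stood at −0.27 and MYBL2 at 0.18, neither called. Between Combo and adapalene 0 of the 30 genes were called (median −0.02), where 0.0381% of all genes were, and FOXM1 was not called there. With Combo against Vehicle FOXM1 was called lower, also under all 20 alternatives. From docetaxel to Combo it was called lower too, a call that 8 of 20 alternatives lost. MYBL2 was called in neither.

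Across the 13 libraries some genes outside the group followed a member closely, given as a description over libraries that share the 4 treatments. By Pearson's r of log2 CPM, E2F1 was most like PTTG1IP (0.958), SLC23A2 (0.956) and AGAP3 (0.941), and E2F3 most like HNRNPM (0.991) and GLRX3 (0.985). E2F7 was most like LAMA1 (0.946) and E2F8 most like PRKCA (0.944), while the closest genes to RBL1 and RBL2 were AP3B1 (0.963) and SCAMP1 (0.961). MYBL2 was nearest to AP2M1 (0.951). Among the members themselves the highest value was 0.840 for RBL1 with FOXM1 and the lowest −0.835 for E2F7 with RBL2.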

How the data were processed

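Strand-preserving libraries of polyadenylated RNA were sequenced as single reads, per the labels' protocols. STAR 2.7.10a, FastQC, DESeq2 and the build GRCh38.p13 are listed, without roles, per the submitters' processing notes. The sources used here give neither the counting program nor its strand setting. The authors deposited raw counts per Ensembl gene, used as deposited; 61369 of 67882 identifiers had a symbol. The members and lists were chosen with earlier results of these data known. With edgeR 4.0.16 in R 4.3.3, genes were filtered by filterByExpr (minimum count 10, minimum total 15), scaled by TMM and fitted with a quasi-likelihood model of 4 group means over all 13 libraries. A run on simulated counts covered docetaxel against Vehicle only, with the same spread set for every gene. It does not bear on how stable the member calls are. List genes were named where called, up to 3 per direction and comparison by size of change. Coordinates are from GENCODE release 29 and promoter sequences from RefSeq (8 of 10 members matched, GRCh38.p14). Alternatives were DESeq2 1.42.0, other scalings, no filter, only the groups compared, a replicate block, and libraries left out. Only docetaxel has a replicate 4. The block gives that library a term of its own, so it no longer enters the docetaxel mean. Deviations of same-numbered Vehicle and Combo libraries correlated at 0.159 to 0.257, so for that comparison the block is printed where it changes a call. Some genes alike to a member are not reported here.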

Additional observations from a re-analysis of the deposited data

Results flagged for a closer look

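The effect of adapalene on E2F1 differed with and without docetaxel: the interaction was 0.63 on the log2 scale (edgeR adjusted p = 0.0328), from −0.14 for adapalene alone to 0.49 for adapalene added to docetaxel. The test of that difference is what marks it for a closer look, and 12 of 19 alternatives kept the call. In the docetaxel group, the 1 group of 4 libraries, no library stood apart from the others in any of the 9 tested members, where chance marks about 1 group in 20.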

How the results depend on the processing

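Of 17 member calls 9 held under every alternative run, and 15 uncalled member values changed sign under some alternative, called under none of them. Adapalene's member count of 1 was 2 by DESeq2, 2 with no filter, 3 with the replicate block and 3 without the 4 libraries of high mitochondrial share. Combo's count of 4 was 2 with total counts only. For Combo against adapalene the count of all genes, 6, was 40 by DESeq2, 128 with no filter, 0 with only the groups compared and 2 with the block. Docetaxel against adapalene gave 5 members with no filter, against 3. The interaction count of 227 genes was 463 by DESeq2, 946 with no filter and 633 without the 4 libraries, and its member count of 1 was 2 with no filter and 0 with the block. The causes were not tested.

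With 1 library left out, all genes called ranged from 2347 to 4680 for docetaxel, 1494 to 3149 for adapalene, 2486 to 4619 for Combo, 2292 to 4365 for Combo against docetaxel, 0 to 33 for Combo against adapalene, 2935 to 5387 between the single drugs and 59 to 523 for the interaction. Members called ranged over 3 to 5, 0 to 3, 2 to 5, 1 to 3, 0 to 0, 3 to 4 and 0 to 1 in that order.

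The log2 values that changed sign with total counts only were those of E2F8 with adapalene (0.0175), E2F1 with Combo (0.0217) and, in the interaction, E2F3 (−0.0207) and RB1 (−0.0014). With no filter it was FOXM1 in the interaction (0.0133). Without the 4 libraries they were RBL2 with adapalene (0.0295), E2F7 (0.0549) and MYBL2 (0.0825) in Combo against adapalene, RBL1 between the single drugs (0.0565) and FOXM1 in the interaction (0.1416). With the block they were RBL1 between the single drugs (0.0309) and, in the interaction, E2F3 (−0.0255), RB1 (−0.0139) and MYBL2 (−0.0088).

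With 1 library left out, E2F3 with docetaxel ran from −0.0225 to 0.0752, E2F8 with adapalene from −0.1306 to 0.0361, and with Combo E2F1 from −0.135 to 0.04 and MYBL2 from −0.0345 to 0.1962. Combo against docetaxel gave −0.1589 to 0.0371 for RB1 and −0.0933 to 0.1558 for RBL2. Combo against adapalene gave −0.0262 to 0.1128 for E2F3, −0.1769 to 0.0634 for E2F7 and −0.2089 to 0.0135 for MYBL2. RBL1 between the single drugs ran from −0.0553 to 0.0369. In the interaction E2F3 ran from −0.0742 to 0.0787, RB1 from −0.0919 to 0.0967, FOXM1 from −0.129 to 0.1156 and MYBL2 from −0.0958 to 0.1718.

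Outside Vehicle and Combo, same-numbered libraries did not deviate together in every pair of groups (correlations of −0.312 to 0.529). Those of adapalene and Combo correlated at 0.0202 to 0.529, and libraries of different number in these groups at −0.566 to 0.197. The block left the member count of that comparison at 0. Of 13 libraries 5 were closest to a library of their own number in another group. The replicate block gave 3792, 2829, 4033, 3558, 2, 4496 and 199 called genes in the order above. For Vehicle and Combo it changed the call of E2F8 and of no other member. The interaction uses all 4 groups, so a fit of only the groups compared was not run for it. Technical replicates from 1 line limit all p-values to the spread between libraries.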
